A study of Homo sapiens with 2 samples.

Results

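FGFBP1 encodes a secreted carrier of fibroblast growth factors (FGFs), and it was examined here with the ligands FGF2, FGF9 and FGF19 and the receptors FGFR1, FGFR2, FGFR3, FGFR4 and FGFRL1. These 9 genes were represented by 40 of the 49293 probe sets that are not array controls, each taken by its single gene symbol in the platform annotation. The cells were HCT116, an established line from a human colorectal carcinoma, grown in DMEM with serum and profiled on Affymetrix arrays. The SUN2 knockdown cells carried a short hairpin RNA named shSUN2-1 against SUN2, an inner nuclear membrane protein that couples the nucleus to the cytoskeleton. The control cells carried a scrambled hairpin (Scr). Each group held 1 array of 1 hairpin, so no value below has a replicate, an SD or a test, and every difference compares these arrays rather than the conditions. The set was chosen by the intensity of FGFBP1, which differed between the arrays, and its own difference is therefore given as a description.

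FGFs are held in the extracellular matrix by heparan sulfate chains, which also act as part of the signalling complex. FGFBP1 binds such stored FGFs reversibly and releases them to their receptors, and it is known for its expression in epithelial tumours. The receptors FGFR1 to FGFR4 are tyrosine kinases that signal through RAS and ERK, whereas FGFRL1 binds FGFs but lacks a kinase domain.

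The arrays were alike in overall level. The median intensity was 107.1 on the knockdown array and 108.8 on the control array, in the deposited linear units. The targeted gene SUN2 read an intensity of 407 in the knockdown array and 498 in the control array on its brightest probe set, a log2 difference of -0.28. Differences over its 6 probe sets ran from -0.39 to -0.05. Of the 8 epithelial markers examined, 7 reached the median over all probe sets, and all 7 were higher in the knockdown array. Over all genes that reached this median, 49.8% were higher. The smallest of the 7 differences were those of CLDN4 (0.0024), CDX2 (0.04) and CDH1 (0.04). After quantile normalization or loess 5 of the 7 were higher, where 58.9% and 53.7% of all such genes were lower. Their summed intensity, with the eighth included, was 9302 in the knockdown array and 7976 in the control array. KRT8, a keratin of simple epithelia, was higher on all 8 probe sets, by 0.34 to 0.58, and its partner KRT18 was higher by 0.32 on its brightest. VIL1, a marker of intestinal brush border, lay below the median over all probe sets and differed by -0.12 on its brightest. Of the 23 background control probe sets, graded by base composition, 20 were lower in the knockdown array. They ran from 31.4 to 1128 in the knockdown array and from 31.2 to 1425 in the control array. Every one of the 18 spike-in probe sets was higher in the knockdown array than in the control array, with a median difference of 0.09.

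The stretches of 250 bases before the annotated starts of FGFBP1 and FGFR3 are shown because these genes had the largest increases among the 9. They are RefSeq sequences of GRCh38.p14, given 5′ to 3′ on the gene's strand. The FGFBP1 stretch is chr4:15938741-15938990 on the minus strand, and the FGFR3 stretch is chr4:1793043-1793292 on the plus strand. Capitals mark matches, searched on both strands, to any of 5 motifs. The first is TGANTCA, bound by the AP-1 family of transcription factors. GGGCGG, the GC box, is bound by Sp1 and its relatives. CCAAT, named after its own letters, is bound by NF-Y. The E-box, bound by helix-loop-helix proteins, was searched as CANNTG. The TATA box near many regulated starts was searched as TATAAA.
FGFBP1: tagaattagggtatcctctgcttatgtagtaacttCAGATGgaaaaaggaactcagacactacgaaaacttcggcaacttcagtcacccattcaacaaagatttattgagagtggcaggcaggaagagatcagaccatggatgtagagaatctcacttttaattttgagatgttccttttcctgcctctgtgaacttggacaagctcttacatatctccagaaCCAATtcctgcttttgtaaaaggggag
FGFR3: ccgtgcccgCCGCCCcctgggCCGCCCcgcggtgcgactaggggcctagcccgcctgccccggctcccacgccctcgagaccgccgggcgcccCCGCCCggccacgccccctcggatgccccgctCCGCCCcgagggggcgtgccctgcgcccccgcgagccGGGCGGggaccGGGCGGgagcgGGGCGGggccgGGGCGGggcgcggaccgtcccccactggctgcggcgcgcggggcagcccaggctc

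The FGFBP1 stretch held 1 CCAAT, which begins 27 bases before the start, and 1 E-box, which begins 215 bases before it. It held no match to the other 3 motifs. Over 35116 stretches of the same length, 32.0% held CCAAT, 61.8% an E-box, 42.6% a GC box, 6.57% the AP-1 motif and 10.7% the TATA box. The FGFR3 stretch held 8 GC boxes and no match to the other motifs. Bases G and C made up 40.8% of the FGFBP1 stretch and 86.8% of the FGFR3 stretch, against a median of 58.0% over all stretches. Of the 9 genes, 6 had such a stretch in the RefSeq table, some for several starts. The FGF2 stretch held 3 GC boxes and that of FGFRL1 held 4. Those of FGFR4 held 7 and 0, and those of FGFR2 held 0, 0, 1, 0 and 3. The share of all stretches with as many was not computed.

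FGFBP1 read an intensity of 166 in the knockdown array and 86.0 in the control array, on its only probe set (11723051_at). The knockdown intensity was 193% of the control intensity. In RNA from whole cultures, more expressing cells and more RNA per cell cannot be told apart. On the log2(intensity + 16) scale, used for every difference here, FGFBP1 was higher by 0.84 in the knockdown array, or 1.79-fold. The control value lay below the median over all probe sets and the knockdown value above it. FGFBP1 therefore passed the filter on low values (a mean over both arrays that reaches that median, an intensity of about 108) only through the array where it was high.

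**Figure D1:**
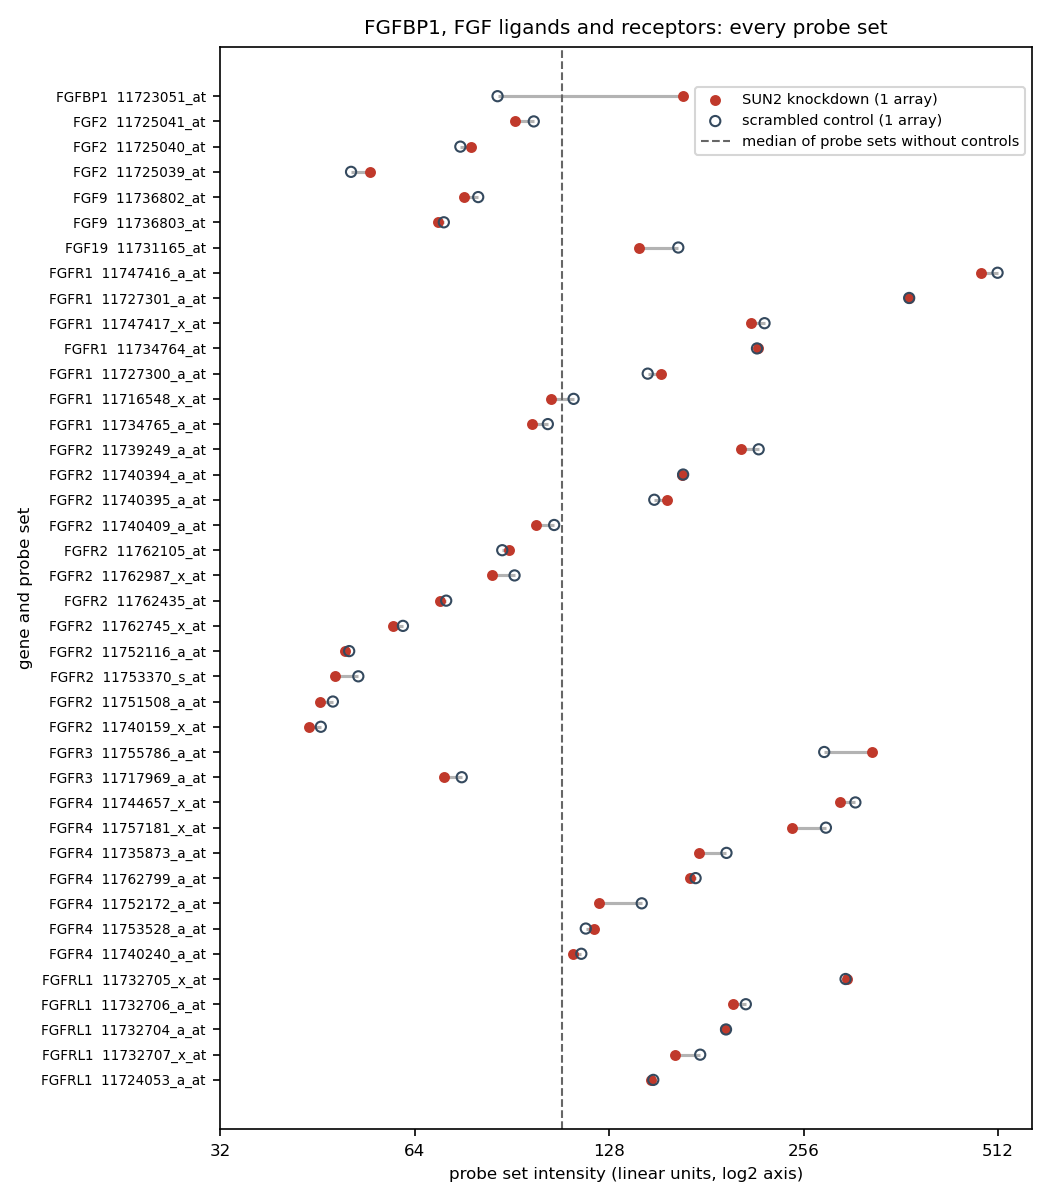
Intensity of every probe set of the 9 genes on the knockdown array (filled) and the control array (open), 1 array each, on a log2 axis; the dashed line is the median over probe sets that are not controls. FGFBP1 is the widest pair, at 166 in the knockdown array and 86.0 in the control array, and most other pairs nearly coincide.

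Ranked by difference, FGFBP1 was 15th highest of the 12220 genes that passed the filter, where each gene stands for its brightest probe set. Of all 49293 probe sets it ranked 26th. A total of 5408 probe sets had a control intensity within 10% of that of FGFBP1. Of these, 3 differed by as much upwards, FGFBP1 included, and the 99th percentile of their differences was 0.26. FGFBP1 was chosen for its difference, so these ranks and counts describe it and test nothing. The window was set on the control array, where FGFBP1 was low. The scatter of probe sets around their gene's mean difference had an SD of 0.09, over 5786 genes with at least 2 probe sets past the filter. This measures probe error within the arrays and no variation between cultures.

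Background was still part of the deposited values, so the size of the FGFBP1 fold depends on its treatment. Its control intensity lay above 13 of the 23 background controls, and its knockdown intensity above 15. FGFBP1 differed by 0.94 when the pseudocount was 1 and by 0.62 when it was 64. At a filter set to the 75th percentile FGFBP1 was not among the genes analysed, and 0 of the 9 genes then reached 1.5-fold.

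The genes whose difference lay nearest to that of FGFBP1 were, above it, KRT20 (0.88), ATG12 (0.91) and KRT23 (0.91). Below it lay HTR7 (0.82), HS3ST1 (0.81) and CCNE2 (0.80). The likeness is the distance between differences from a single pair of arrays. KRT20, an intestinal keratin, had intensities close to those of FGFBP1, at 182 in the knockdown array and 91.1 in the control array. For ATG12, HTR7, HS3ST1 and CCNE2 another probe set differed by 0.09, -0.10, 0.02 and 0.03.

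The protein-coding genes next to FGFBP1 on chromosome 4 had smaller differences. They were looked up after the values were seen. FGFBP2, the adjacent paralogue, read 160 in the knockdown array and 166 in the control array, a difference of -0.05. PROM1, beyond FGFBP2, differed by 0.15 with its brightest probe set below the filter. CD38 and BST1, on the other side of FGFBP1, differed by 0.01 and 0.13, and both lay below the filter.

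None of the 3 ligands differed by 1.5-fold. FGF19, an endocrine FGF of the intestine that restrains bile acid synthesis in the liver, had 1 probe set. It read 142 in the knockdown array and 164 in the control array, a log2 difference of -0.18. This was the lowest difference among the 9 genes by brightest probe set, and 3.63% of the genes past the filter were as low or lower.

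FGF2, a heparin-binding growth factor and a known partner of FGFBP1, had 3 probe sets, and none passed the filter. They read 91.4, 78.1 and 54.5 in the knockdown array, against 97.8, 75.3 and 51.0 in the control array. The brightest was lower by 0.08 on the log2 scale and the other two were higher by 0.04 and 0.07, so the probe sets of FGF2 disagreed in direction. FGF9, a paracrine FGF, had 2 probe sets, which read 76.3 and 69.5 in the knockdown array and 80.2 and 71.0 in the control array. Both lay below the median, with differences of -0.06 and -0.02.

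The receptors were measured by 33 probe sets, of which 26 were lower in the knockdown array and 7 higher. Their differences ran from -0.20 to 0.23, with a median of -0.05. Over all 49293 probe sets 57.7% were lower, with a median of -0.02. Past the filter 16 of 22 receptor probe sets were lower, where 48.9% of all such probe sets were. Below it 10 of 11 were lower, where 66.5% of all such probe sets were. After quantile normalization 28 of the 33 were lower, beside 55.0% of all probe sets. After loess 22 were lower, beside 51.0% of all, and after median centring 21, beside 48.9% of all. Probe sets of the same gene are not independent, and FGFR2 gave 12 of the 33, with 10 lower. By brightest probe set FGFR1 (-0.08), FGFR2 (-0.09) and FGFR4 (-0.08) were lower, and FGFR3 (0.23) and FGFRL1 (0.01) were higher. Markers of fibroblasts, immune cells and endothelium, as a whole, had a summed intensity of 2495 in the knockdown array and 2643 in the control array, with 16 of 17 markers lower and none at 0. Only 8 of the 17 passed the filter, and all 8 were lower, beside 50.2% of all genes past it. Background is part of these values, and 20 of the 23 background controls were lower too. The cultures were of an established carcinoma line, so the sums are not a measure of such cells. How far the same background enters the receptor values was not tested.

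FGFR1, which binds a wide range of FGFs, had 7 probe sets, 6 of them past the filter. The brightest (11747416_a_at) read 483 in the knockdown array and 511 in the control array, a difference of -0.08. The next read 372.3 in the knockdown array and 373.1 in the control array. Over the 7, differences ran from -0.10 to 0.06 and their mean was -0.04. The brightest differed by -0.17 after quantile normalization and by -0.15 after loess.

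FGFR2 encodes a receptor whose epithelial and mesenchymal splice forms bind different FGFs. It had the most probe sets, 12, of which 9 lay below the median. The brightest (11739249_a_at) read 205 in the knockdown array and 218 in the control array, and differed by -0.09. Differences over all 12 ran from -0.10 to 0.06, with 10 lower and 2 higher. The table used here does not say which splice form each probe set detects, and the forms were not separated.

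FGFR3 had the second largest difference of the 9 genes, on 1 of its 2 probe sets. The brighter (11755786_a_at) read 326 in the knockdown array and 276 in the control array, higher by 0.23 or 1.17-fold. The other (11717969_a_at) lay below the filter, at 71.1 in the knockdown array and 75.7 in the control array, and was lower by 0.07. The mean over both was 0.08. The higher value thus rests on a single probe set.

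FGFR4, the main receptor for FGF19 in liver, had 7 probe sets, all past the filter. Of these, 6 were lower in the knockdown array, from -0.20 to -0.03, and 1 was higher by 0.04. The largest decrease was on 11752172_a_at, which read 123 in the knockdown array and 144 in the control array. The second largest, -0.17, was on 11757181_x_at, at 245 in the knockdown array and 277 in the control array. The mean over all 7 was -0.09. The same count of 6 lower was found after median centring, quantile normalization and loess.

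FGFRL1, the receptor without a kinase domain, differed by 0.01 on its brightest of 5 probe sets, which read 299 in the knockdown array and 297 in the control array. The other four differed by -0.12 to -0.01. The direction turned with the scaling. The brightest differed by -0.03 after quantile normalization, -0.01 after loess and 0.03 after median centring. Of the 5 probe sets, 5 were lower after quantile normalization, 3 after loess and 2 after median centring.

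**Figure D2:**
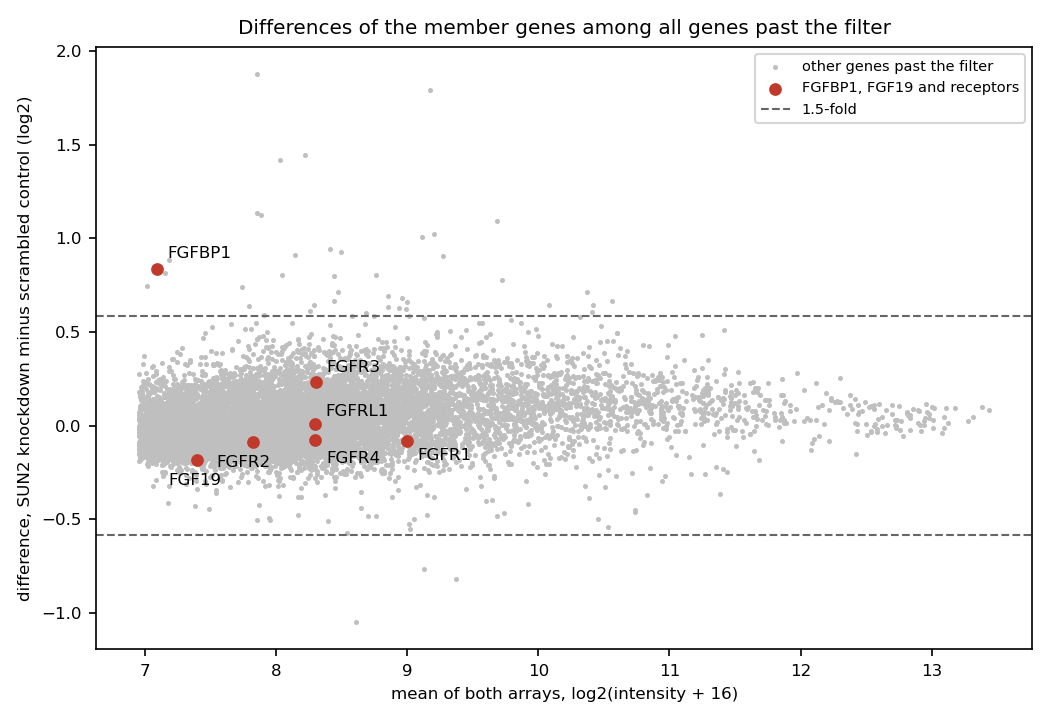
Difference between the knockdown and control arrays (log2) against the mean of both arrays for the 12220 genes past the filter; red points are FGFBP1, FGF19 and the 5 receptor genes, and dashed lines mark 1.5-fold. FGFBP1 stands at 0.84 and the other 6 lie between -0.18 and 0.23.

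In all, 7 of the 9 genes passed the filter and 1, FGFBP1, was at least 1.5-fold different, the gene chosen for its difference. Across all genes past the filter, 0.36% differed by at least 1.5-fold, with 0.336% higher and 0.0245% lower. Of the 40 probe sets, 24 lay at or above the median and 16 below it on the mean of both arrays. Those below were 9 of FGFR2, 3 of FGF2, 2 of FGF9 and 1 each of FGFR1 and FGFR3. Just above that line lay an FGFR1 probe set (11716548_x_at, mean intensity 108.2) and just below it an FGFR2 probe set (11740409_a_at, 101.9). The same 16 lay below the median on both arrays.

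Further genes of the pathway were taken from lists by role. Of 17 other FGF binding proteins and secreted ligands, 12 lay below the filter and none of the 5 past it reached 1.5-fold. Those 5 had a median difference of -0.03, against -0.0009 over all genes past the filter. Among them FGF6 differed by -0.11 and FGFBP2 by -0.05. Of the intracellular FGF homologous factors, which do not act through FGF receptors as secreted ligands do, FGF11 alone passed the filter and differed by -0.13, with all 4 probe sets lower. KLB, the coreceptor that FGF19 needs, read 47.8 in the knockdown array and 48.6 in the control array on its brightest of 3 probe sets, below the filter.

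Heparan sulfate genes held the other difference past 1.5-fold. HS3ST1, an enzyme that adds 3-O sulfate groups to heparan sulfate, read 557 in the knockdown array and 312 in the control array (11733913_at), higher by 0.81 or 1.75-fold. Its second probe set past the filter (11733912_at) read 123 in the knockdown array and 120 in the control array, so the probe sets of HS3ST1 disagreed in size. Of the 10 genes for heparan sulfate synthesis and editing past the filter, 9 were higher and 1 was lower, with a median of 0.12. Over all genes past the filter 49.8% were higher. The count by brightest probe set was also 9 of 10 after median centring, quantile normalization and loess. It depends on the choice of probe set. Averaged over all their probe sets, NDST1 (-0.0092) and HS6ST1 (-0.02) were lower too, beside EXTL3 (-0.04), the gene lower on its brightest. HS6ST2, a 6-O sulfotransferase named after its value was seen, differed by 0.44, with 1 of 4 probe sets past the filter.

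Among 6 coreceptors and heparan sulfate proteoglycans past the filter, 4 were higher and 2 lower (3 and 3 after quantile normalization), beside 49.8% of all genes higher. The median was 0.04. SDC1, the main syndecan of epithelial cells, read 275 in the knockdown array and 361 in the control array, a difference of -0.37, while the other one past the filter differed by 0.0022. HSPG2, the basement membrane proteoglycan perlecan, differed by 0.18 on 1 of its 2 probe sets. The other lay below the filter and differed by -0.09.

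The genes that relay receptor signals had a median difference of 0.10 over 11 genes past the filter, with 7 higher and 4 lower. Over all genes past the filter 49.8% were higher, with a median of -0.0009. After quantile normalization 4 were higher and 7 lower, beside 58.9% of all genes lower. MAP2K1, an ERK kinase, and PTPN11, a phosphatase needed for RAS activation, had the largest differences, 0.26 and 0.22. The 3 MAP2K1 probe sets ran from -0.10 to 0.26. PTPN11 had 1 of 4 probe sets past the filter, and the others ran from -0.07 to 0.02.

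Feedback inhibitors and target genes of FGF and ERK signalling, which other growth factors also control, were lower for 12 of 19 genes past the filter and higher for 7, with a median of -0.11. Over all genes past the filter 50.2% were lower. After loess 14 were lower, beside 53.7% of all genes, and after quantile normalization 15, beside 58.9%. None reached 1.5-fold. The transcription factor EGR1 read 465 in the knockdown array and 654 in the control array on its brightest probe set, a difference of -0.48. Of its 6 probe sets, the 3 past the filter ran from -0.55 to -0.24, and those below it from -0.12 to -0.03. MYC went the other way, at 898 in the knockdown array and 642 in the control array, a difference of 0.48 on its 1 probe set. Several further genes were named after their values were seen. DUSP6, the ERK phosphatase, was lower on all 4 probe sets, from -0.47 to -0.32. The receptor pathway inhibitors SPRY4 and IL17RD differed by -0.27 and -0.25, each on its 1 probe set past the filter. Their other probe sets differed by -0.05 and -0.10 for SPRY4 and by -0.10 to -0.04 for IL17RD. DUSP5, another ERK phosphatase, differed by 0.31 on its 1 probe set. The 7 higher genes also included DUSP4 (0.20), FOSL1 (0.19, with all 6 probe sets higher) and CCND1 (0.08). The 12 lower ones also included IER3 (-0.45).

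Of the splicing regulators that act on FGFR2, ESRP2 differed by 0.25 on its 1 probe set. RBFOX2 differed by 0.24 on its brightest, with 8 probe sets past the filter from -0.07 to 0.24 and a mean of 0.09 over all 9. ESRP1, which like ESRP2 favours the epithelial form, was lower by 0.18 on its brightest probe set and by 0.02 on the other.

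**Figure D3:**
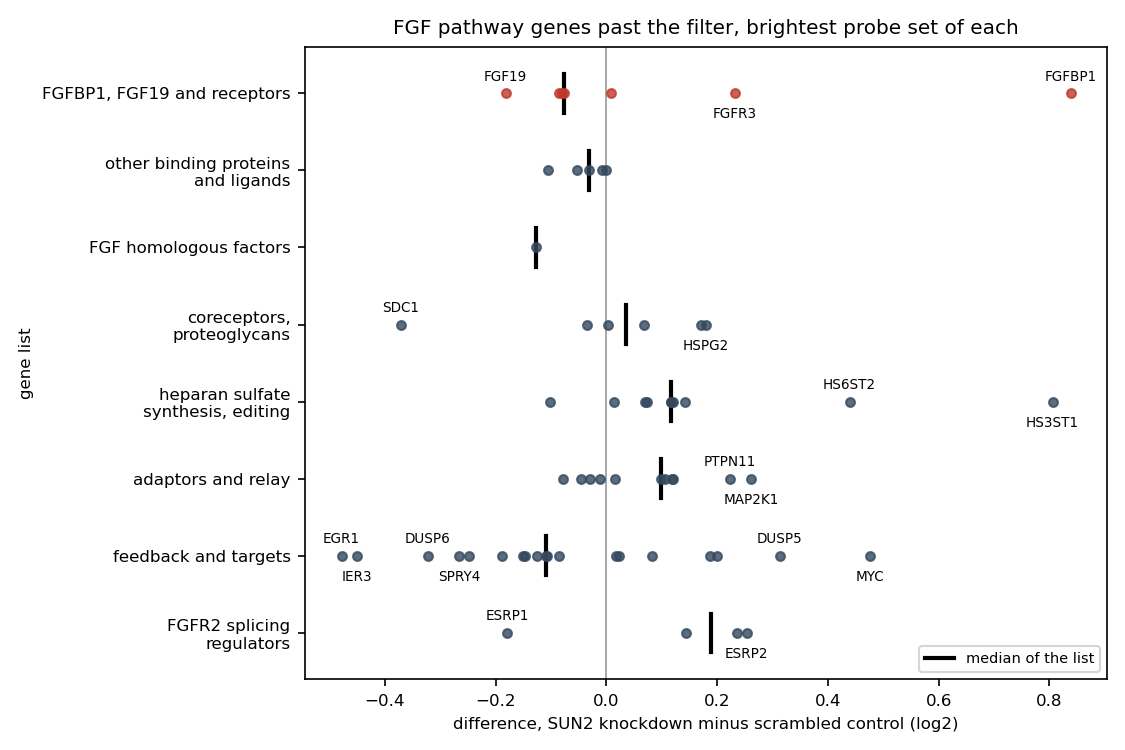
Difference between the knockdown and control arrays (log2) of each pathway gene past the filter, by list, with 1 point a gene and a bar at the median of the list. FGFBP1 (0.84) and HS3ST1 (0.81) stand apart on the right, and feedback and target genes spread from EGR1 (-0.48) to MYC (0.48).

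The FGFBP1 difference was also computed under each of 8 other settings, shown in the plot of processing settings. It lay between 0.62 and 0.94. FGFR3 lay between 0.08 and 0.25, and FGF19 between -0.20 and -0.14. FGFBP1 and FGF19 had 1 probe set each, not of the _x_at or _s_at class. Averaging probe sets or leaving out those classes could not change their differences.

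**Figure D4:**
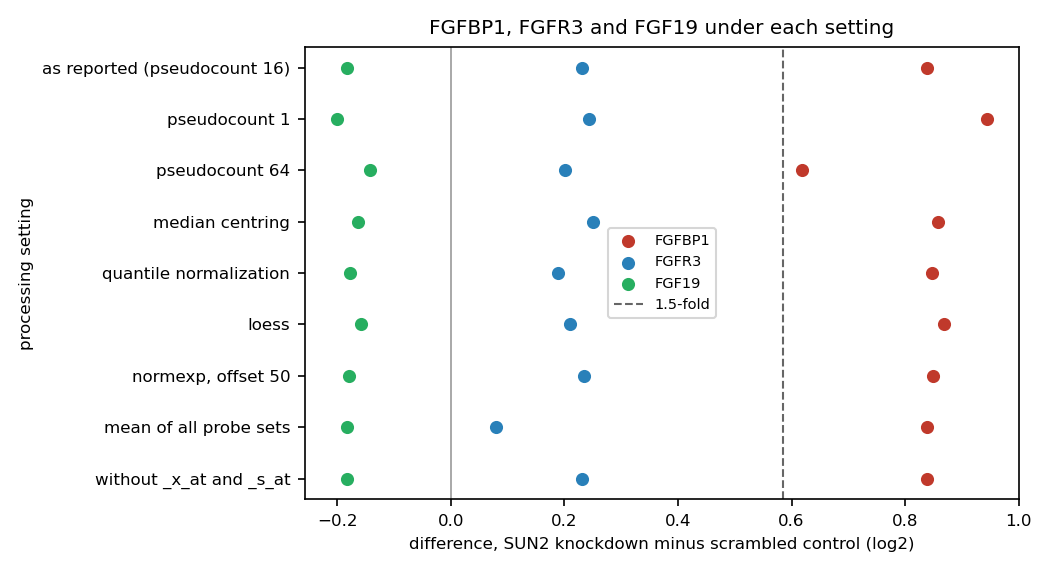
Difference between the knockdown and control arrays (log2) of FGFBP1, FGFR3 and FGF19 under the reported setting and 8 others; the dashed line marks 1.5-fold. FGFBP1 stays to the right of that line, nearest at 0.62 with a pseudocount of 64. The settings that average or leave out probe sets could not move FGFBP1 or FGF19, with 1 probe set each.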

How the data were processed

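The authors deposited probe set intensities on a linear scale, 1 value per probe set and array. MAS5 and RMA are named, without role or order, per the submitters' processing notes, and how the arrays were normalized to each other was not given in the sources used here. Of 49293 probe sets other than controls, 44988 had 1 gene symbol in the platform annotation, 1832 several and 2473 none. Symbols were updated through the Entrez ID with RefSeq. The members and gene lists were chosen with earlier results of these data known. Differences are the knockdown minus the control array on log2(intensity + 16), which understates the change of dim genes. A gene was its brightest probe set by the mean of both arrays, and passed the filter at or above the 50th percentile of probe sets, which left 12220 of 18132 genes. A count was of genes at least 1.5-fold different. With 1 array per group no test was possible, and the number of arrays limits the precision. Probe sets ending _a_at match several transcripts of a gene, and _s_at and _x_at ones may match other genes. Genes of the lists without a probe set of 1 symbol were not analysed here. Named genes were all members with every probe set, SUN2, from each pathway list those past 1.5-fold or else the 2 with the largest difference, and the 3 on each side of FGFBP1 by difference. KLB, ESRP1 and the cell type markers named were chosen outside this rule after their values were seen. Alternatives changed the pseudocount, the normalization, the background (normexp, offset 50, in place of the pseudocount), the probe sets and the filter. The steps were tested on simulated data. Python 3.11.15, pandas 2.3.3, R 4.3.3 and limma 3.58.1 were used.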

Additional observations from a re-analysis of the deposited data

How the results depend on the processing

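No paired analysis was possible because a single array stands for either group, and leaving one out would end the comparison. FGFBP1 differed by 0.94 with a pseudocount of 1 and by 0.62 with a pseudocount of 64. It lay between 0.85 and 0.87 under median centring, quantile normalization, loess and normexp. FGFBP1 had 1 probe set, which was not of the _x_at or _s_at class. Averaging probe sets or leaving out those classes therefore could not change its difference of 0.84. Its rank among genes was between 10th and 25th in the settings that kept it. The count of the 9 genes at least 1.5-fold different was 1, and 0 with the filter at the 75th percentile, which removes FGFBP1. Of 16 probe sets below the median, 6 lay below the 25th percentile, and 30 of the 40 lay below the 75th. The brightest FGFR1 probe set differed by -0.08, and by -0.17 after quantile normalization and -0.15 after loess. Averaging the probe sets moved FGFR3 to 0.08 and FGF2 to 0.01. FGFRL1 turned below 0 in 4 settings, between -0.06 and -0.01. Among all genes past the filter, 41 were at least 1.5-fold higher and 3 lower. Quantile normalization gave 29 and 10, loess 32 and 8, and averaging of probe sets 22 and 2. The probe sets of FGF2 and FGF9 all lay below the median, where background can make up much of the signal and hide a change.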
